A study of Homo sapiens with 6 samples.

Results

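The genes described here make, sense and break down prostaglandin E2 (PGE2): PLA2G4A, PTGS1, PTGS2, PTGES, PTGES3, PTGER2, PTGER4, HPGD and PTGR1. They were taken by gene symbol from the deposited count table, where 9 of the 58735 listed genes carry these names, and all 9 passed the filter on low counts that left 15430 genes for testing. The data are RNA-Seq of MCF10A, a non-malignant human breast epithelial line, with 3 libraries from cells given a nontargeting siRNA pool (siControl) and 3 from cells given siRNA against DAB2IP (siDAB2IP), a Ras GTPase-activating protein. RNA was taken 48 hours after transfection. Cells of both groups grew in medium with horse serum, insulin, epidermal growth factor, hydrocortisone and cholera toxin, an agent that raises cAMP. The comparison asks which transcripts of the pathway differ once DAB2IP is depleted.

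Prostaglandins start from arachidonic acid, which cytosolic phospholipase A2 cuts from membrane lipids. Cyclooxygenases turn it into PGH2, prostaglandin E synthases turn PGH2 into PGE2, and PGE2 acts on cell-surface EP receptors, of which EP2 and EP4 raise cAMP. Dehydrogenation and reduction inside cells end the signal. In epithelia the inducible cyclooxygenase PTGS2 is known for its rise with growth factors, inflammatory cytokines and Ras pathway activity, while PTGS1 is made at a steadier level.

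The release enzyme PLA2G4A, the inducible cyclooxygenase PTGS2 and the PGE2 synthase PTGES rose in siDAB2IP cells, by 1.41-, 1.87- and 1.52-fold. The other 6 genes did not pass the test in either direction. By edgeR's quasi-likelihood test with Benjamini-Hochberg adjustment over all genes tested, 3 of the 9 genes thus rose, where 6.55% of all tested genes rose, and 0 fell, where 7.65% of all tested genes fell. At an unadjusted p under 0.05 the same 3 rose, where 14.5% of all tested genes rose, and 1, PTGES3, fell, where 15.5% fell. DESeq2 also gave 3 that rose, against 7.86% of the genes with a DESeq2 adjusted p, and 0 that fell, against 9.76%. These tests did not use the replicate numbers of the libraries. An edgeR fit blocked on them gave 3 that rose, where 9.59% of all tested genes rose, and 1, PTGES3, that fell, where 11.4% fell. The 9 genes had a median log2 fold change of -0.09 against 0.01 over all genes tested, with 4 of them higher and 5 lower. In 3 genes every siDAB2IP library stood above every siControl library, an order seen in 17.6% of all tested genes, and in 0 genes it stood below, an order seen in 18.3%. DAB2IP, the targeted gene, fell from 91.6 ± 13.1 CPM to 25.1 ± 2.57 CPM (counts scaled to library size with TMM factors, mean ± SD over the 3 libraries of a group), or by 1.86 on the log2 scale (edgeR adjusted p = 9.71e-05).

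The libraries held 16353783 to 21916062 counts, so that a count of 0 in a library allows a level of up to 0.139 to 0.187 CPM (3 counts, counting error only). The labels do not say whether replicates came from separate cultures, and p-values therefore measure the spread between these libraries, which may be technical. One line and 1 siRNA pool per group were used, so effects of DAB2IP loss and other effects of that pool cannot be told apart. In RNA from whole cultures, fewer cells that make a transcript and less of it per cell cannot be told apart either.

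The promoters of the 3 genes that rose are shown because the findings turn on these genes, and each stretch lies just upstream of the start that RefSeq gives, running 5′ to 3′ on the gene's strand from 250 to 11 bases before it (RefSeq, GRCh38.p14). Which start these cells used was not measured. Capitals mark matches to the TATA box TATAAA, the cAMP response element core CGTCA and the GC box GGGCGG.
PTGS2, chr1:186680434-186680673, minus strand: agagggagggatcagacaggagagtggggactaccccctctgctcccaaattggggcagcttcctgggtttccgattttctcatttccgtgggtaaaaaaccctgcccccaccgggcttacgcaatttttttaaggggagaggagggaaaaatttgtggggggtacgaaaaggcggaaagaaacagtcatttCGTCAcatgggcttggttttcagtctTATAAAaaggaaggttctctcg
PTGES, chr9:129753053-129753292, minus strand: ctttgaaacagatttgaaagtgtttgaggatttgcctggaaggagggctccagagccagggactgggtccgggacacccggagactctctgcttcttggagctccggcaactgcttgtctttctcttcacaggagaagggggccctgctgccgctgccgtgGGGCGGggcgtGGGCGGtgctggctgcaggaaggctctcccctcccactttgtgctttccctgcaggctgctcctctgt
PLA2G4A, chr1:186828699-186828938, plus strand: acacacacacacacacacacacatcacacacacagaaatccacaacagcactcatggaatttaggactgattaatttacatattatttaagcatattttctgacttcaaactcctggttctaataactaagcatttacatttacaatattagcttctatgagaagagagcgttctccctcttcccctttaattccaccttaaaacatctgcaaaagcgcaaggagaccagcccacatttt

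The 3 stretches shared none of the searched motifs. The PTGS2 promoter held a TATA box 32 to 27 bases before the start and a cAMP response element core 58 to 54 bases before it. The PTGES promoter held 2 GC boxes, 89 to 84 and 78 to 73 bases before the start, and no TATA box. The PLA2G4A promoter held neither, and opened with a run of CA repeats. On either strand, TATAAA is found in 10.6% of the 35116 RefSeq promoter stretches of this length, CGTCA in 20.5% and GGGCGG in 41.4%. All 9 genes matched the RefSeq table, with 11 promoters between them, of which 2 held the TATA box, 4 the cAMP response element core and 7 the GC box. The AP-1 site TGANTCA was in 0 of the 11 promoters against 6.43% of all promoters. The NF-κB consensus searched was GGGRNWYYCC (R is A or G, W is A or T, Y is C or T, N is any base). It was in 1 promoter, that of PTGER4, against 4.99% of all promoters. The PTGS2 stretch holds gggactaccc, which misses this pattern by 1 base, so sites that depart from the pattern were not counted. None of these motifs overlaps another in the printed stretches, and a match of letters says nothing of binding in these cells.

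By FPKM (counts scaled by gene length and library size, the scale on which genes can be set beside each other), the pathway was led by its last synthetic step. PTGES stood at 387 ± 41.6 FPKM in siControl cells and ranked 50 among the tested genes, followed by PTGES3, the cytosolic PGE2 synthase also known as the HSP90 co-chaperone p23, at 56.7 ± 4.56 FPKM. PLA2G4A came next at 11 ± 1.69 FPKM. PTGR1, a reductase of prostaglandin breakdown products, lay at 6.13 ± 0.498 FPKM and PTGS1 at 4.61 ± 0.693 FPKM. The inducible cyclooxygenase PTGS2 was low, at 1.10 ± 0.099 FPKM, a level above that of 23.6% of the tested genes.

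The dehydrogenase HPGD and both receptors closed the order at control levels of 0.665 ± 0.091 FPKM for HPGD, 0.533 ± 0.109 FPKM for PTGER2 and 0.412 ± 0.151 FPKM for PTGER4. Between neighbours in this order, the control libraries overlapped only for HPGD and PTGER2 and for PTGER2 and PTGER4. In siDAB2IP cells the means kept the same order, with PTGES at 588 ± 143 FPKM and PTGER4 at 0.324 ± 0.0545 FPKM, and PTGR1 and PTGS1 overlapped as well. The plot of FPKM by library shows the span from PTGES to the receptors.

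**Figure D1:**
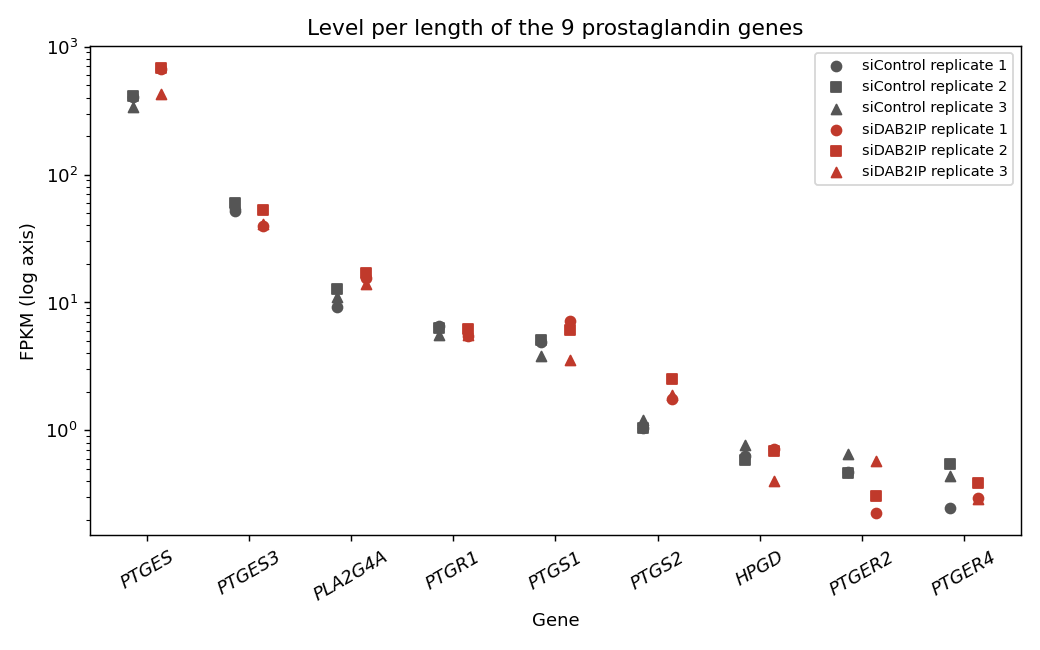
FPKM of each gene (y axis, log scale) in the 3 siControl and 3 siDAB2IP libraries, with genes on the x axis ordered by their control mean. Each point is a library, its shape the replicate number. PTGES stands at 387 FPKM in control cells while PTGS2, HPGD, PTGER2 and PTGER4 lie near or below 1.10 FPKM.

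PLA2G4A, the cytosolic phospholipase A2 that releases arachidonic acid, lies on chromosome 1 at 186828953 to 186988981 (GRCh38, plus strand). Its siControl libraries held 27, 36.6 and 32.2 CPM and its siDAB2IP libraries 45.4, 49.3 and 40.3 CPM, for replicates 1 to 3. The groups did not overlap. On the log2 scale PLA2G4A rose by 0.49 (SE 0.13, 95% confidence interval 0.19 to 0.79, edgeR adjusted p = 0.0372). Its adjusted p was 0.124, 0.0557 and 0.109 without siControl replicate 1, 2 or 3 and 0.0900 and 0.103 without siDAB2IP replicate 1 or 2, and it passed only without siDAB2IP replicate 3 (0.0117). On log2(FPKM + 1) with limma the adjusted p was 0.0565.

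PTGS2 lies on the opposite strand of the same region of chromosome 1 (186671791 to 186680427), 148.5 kb from PLA2G4A. It held 5.55, 5.52 and 6.46 CPM in the siControl libraries and 9.42, 13.3 and 10.0 CPM in the siDAB2IP libraries. Every siDAB2IP library was higher, and the difference was largest between the libraries numbered 2. PTGS2 rose by 0.90 on the log2 scale (SE 0.19, 95% confidence interval 0.49 to 1.32, edgeR adjusted p = 0.0127), the largest rise among the 9 genes, on counts of 89 to 119 in siControl and 167 to 241 in siDAB2IP libraries. The adjusted p was 0.0531 without siControl replicate 1 and 0.0700 without siControl replicate 2, and it passed the threshold in the other 4 fits that left out a library. On the same stretch of chromosome, TPR, a nuclear pore protein, differed by -0.31 on the log2 scale (edgeR adjusted p = 0.0991) and ODR4 by 0.33 (edgeR adjusted p = 0.0544).

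PTGS1, the constitutive cyclooxygenase, lies on chromosome 9 at 122370530 to 122395703, 585 kb from DAB2IP. Its siControl libraries held 29, 29.5 and 22.3 CPM and its siDAB2IP libraries 41.6, 35.4 and 20.9 CPM. The siDAB2IP library numbered 3 was the lowest of all 6 and the groups overlapped. The log2 fold change was 0.28 (SE 0.22, 95% confidence interval -0.22 to 0.77, edgeR adjusted p = 0.453). Without siDAB2IP replicate 3 the log2 fold change was 0.51 with an adjusted p of 0.0250.

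Per length, PTGS1 remained the more abundant cyclooxygenase in every library. PTGS2 made up 17.4%, 17.1% and 24.1% of the summed FPKM of both genes in siControl libraries and 19.9%, 29.3% and 34.6% in siDAB2IP libraries. The groups overlapped in this share, which averaged 19.5% ± 4.0 and 27.9% ± 7.40 (SD, n = 3 each). Whether the fold changes of both genes differ was not tested.

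PTGES encodes the membrane-bound inducible PGE2 synthase and lies on chromosome 9 at 129738331 to 129753047 (minus strand). Its siControl libraries held 780, 789 and 649 CPM and its siDAB2IP libraries 1267, 1301 and 812 CPM. The lowest library of each group was its replicate 3, and siDAB2IP replicate 3 stood barely above the highest control. PTGES rose by 0.61 on the log2 scale (SE 0.18, 95% confidence interval 0.21 to 1.01, edgeR adjusted p = 0.0489). Without siDAB2IP replicate 3 the adjusted p was 0.000812. Leaving out siControl replicate 1, 2 or 3 gave 0.112, 0.121 and 0.159 and leaving out siDAB2IP replicate 1 or 2 gave 0.136 for each, and limma on log2(FPKM + 1) gave 0.102.

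PTGES3 lies on chromosome 12 at 56663341 to 56688408 and went the other way. It held 177, 205 and 201 CPM in siControl libraries and 136, 182 and 141 CPM in siDAB2IP libraries. The siDAB2IP library numbered 2 was above the lowest control, so the groups overlapped. The log2 fold change was -0.34 (SE 0.13, 95% confidence interval -0.63 to -0.06, edgeR adjusted p = 0.102). It passed the threshold in a fit blocked on the replicate number (log2 fold change -0.35, adjusted p = 0.0313), with no filter on low counts (adjusted p = 0.0422) and without siDAB2IP replicate 2 (log2 fold change -0.49, adjusted p = 0.0326). With the block, 1 of the 9 genes therefore fell, where 11.4% of all tested genes fell, and 3 rose, where 9.59% of all tested genes rose. PTGES3 has processed copies elsewhere in the genome with which reads can be shared, of which PTGES3P1 held 3 to 13 counts a library.

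The ratio of PTGES to PTGES3 in FPKM was 7.91, 6.89 and 5.79 in siControl libraries and 16.6, 12.8 and 10.4 in siDAB2IP libraries. The lowest siDAB2IP ratio was above the highest control ratio. This ratio joins a gene that rose with one that did not pass the main test and was not tested itself.

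**Figure D2:**
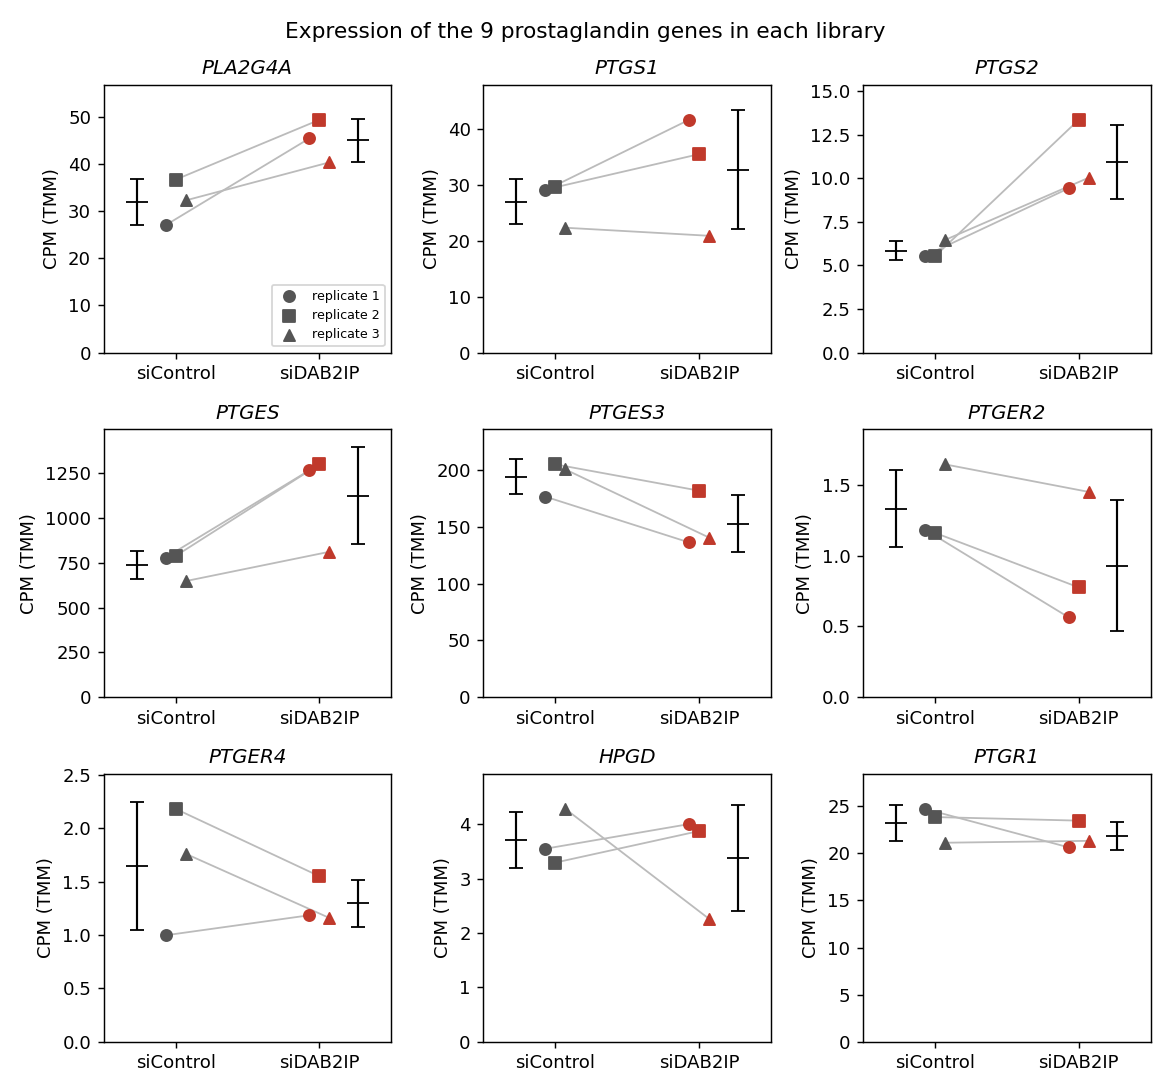
CPM of each gene in each library, 1 panel a gene with its own y axis (CPM, starting at 0) and the siControl and siDAB2IP groups on the x axis; points are libraries, lines join libraries of the same replicate number and the bars beside the points show the group mean ± SD. The siDAB2IP points lie above all siControl points for PLA2G4A, PTGS2 and PTGES, while the groups overlap for the other 6 genes.

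The receptors were close to the limit of counting. PTGER2, which encodes EP2 (chromosome 14, 52314305 to 52328606), had 19, 25 and 28 counts in siControl libraries and 10, 14 and 25 in siDAB2IP libraries. In CPM these were 1.18, 1.16 and 1.64 against 0.564, 0.775 and 1.45. The siDAB2IP library numbered 3 lay within the control range. The log2 fold change was -0.51 (SE 0.40, 95% confidence interval -1.41 to 0.38, edgeR adjusted p = 0.435).

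PTGER4, which encodes EP4 (chromosome 5, 40679498 to 40693735), had 16, 47 and 30 counts in siControl and 21, 28 and 20 in siDAB2IP libraries. Its levels were 0.997, 2.18 and 1.76 CPM against 1.18, 1.55 and 1.16 CPM. All 3 siDAB2IP values lay inside the spread of the controls. PTGER4 had a log2 fold change of -0.36 (SE 0.35, 95% confidence interval -1.13 to 0.42, edgeR adjusted p = 0.543). For both receptors the interval covers falls larger than the rise of PTGS2 as well as small rises, and no difference was detectable. The spread between libraries was larger than counting alone gives in part of the groups. The CV was 49.7% for PTGER2 in siDAB2IP libraries against 22.3% from counting, and 36.5% for PTGER4 in siControl libraries against 19.2%. The counting values were taken from the mean count of all 6 libraries, not of the group.

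HPGD, the dehydrogenase that inactivates PGE2 (chromosome 4, 174490177 to 174523154), held 3.55, 3.30 and 4.29 CPM in siControl libraries and 4.0, 3.88 and 2.26 CPM in siDAB2IP libraries. Both groups overlapped, and siDAB2IP replicate 3 stood below every other library. The log2 fold change was -0.13 (SE 0.26, 95% confidence interval -0.72 to 0.46, edgeR adjusted p = 0.791), and without siDAB2IP replicate 3 it was 0.091 (adjusted p = 0.831). PTGS2 stood to HPGD in FPKM as 1.64, 1.76 and 1.58 in siControl libraries and as 2.47, 3.61 and 4.65 in siDAB2IP libraries, so this ratio did not overlap between groups. PTGS2 alone did not overlap either, and the ratio itself was not tested. The value of 4.65 rests on 39 counts of HPGD in siDAB2IP replicate 3.

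PTGR1, which reduces the products of HPGD (chromosome 9, 111549722 to 111599893), held 24.7, 23.9 and 21.1 CPM in siControl and 20.6, 23.5 and 21.3 CPM in siDAB2IP libraries. The groups overlapped. Its log2 fold change was -0.09 with the narrowest error of the 9 genes (SE 0.12, 95% confidence interval -0.37 to 0.18, edgeR adjusted p = 0.673). A fall by more than 0.37 or a rise by more than 0.18 on the log2 scale lies outside that interval.

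**Figure D3:**
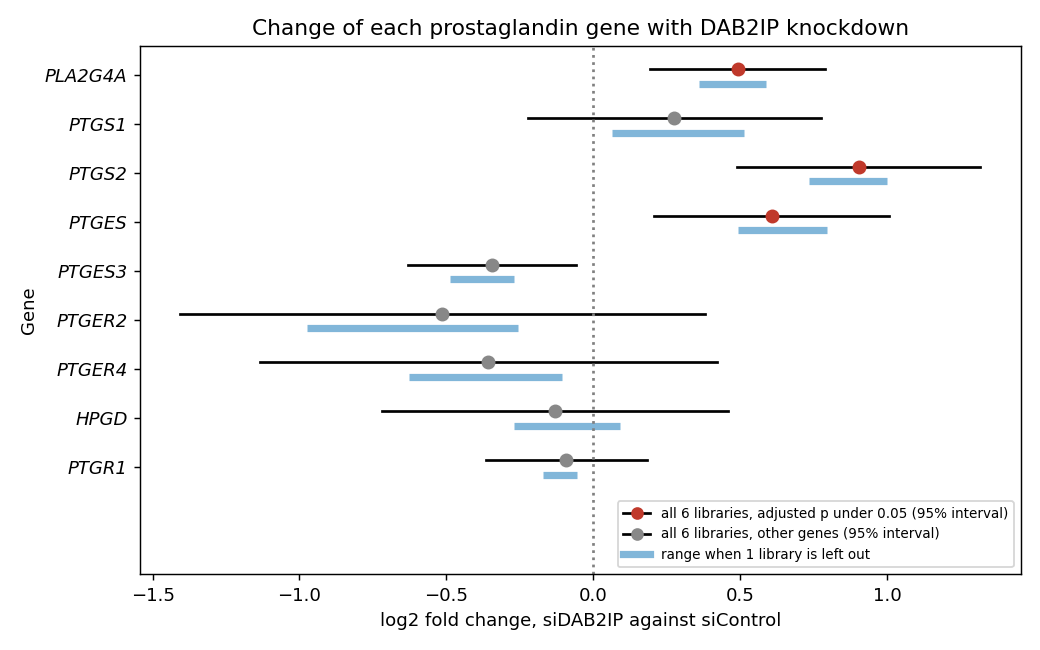
Log2 fold change of siDAB2IP against siControl (x axis) for each gene (y axis), with points for the edgeR estimate, black lines for its 95% confidence interval and blue bars for the range of estimates when 1 library is left out; red points have an adjusted p under 0.05. PTGS2 (0.90), PTGES (0.61) and PLA2G4A (0.49) lie right of 0, and the widest intervals are those of PTGER2 and PTGER4.

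The exact permutation test on CPM (two-sided) gave p = 0.1 for PLA2G4A, PTGS2 and PTGES, the smallest that 3 libraries against 3 allow. The same exact test gave p = 0.2 for PTGES3 and p = 0.5 for PTGS1. This test alone therefore could not pass the threshold for any gene.

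Libraries of the same replicate number deviated together from their group means over all genes, and the differences within numbers can be read as pairs. PTGS2 rose by 0.75, 1.26 and 0.63 on the log2 scale in pairs 1 to 3. PTGES rose by 0.70, 0.72 and 0.33 and PLA2G4A by 0.75, 0.43 and 0.32. Each of the 3 genes was therefore higher in 3 of 3 pairs, with the smallest difference in pair 3. PTGES3 was lower in each pair, by -0.37, -0.17 and -0.51, and so was PTGER2, by -0.94, -0.52 and -0.17. HPGD differed by 0.17, 0.23 and -0.89 and PTGS1 by 0.52, 0.26 and -0.10, with pair 3 going against the others in both.

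Outside the 9 genes, 14 of 22 listed prostanoid genes (other synthases, receptors, transporters and reductases) were tested, with a median log2 fold change of -0.0036. Among these 1 rose (7.14%) and 2 fell (14.3%), where 6.55% of all tested genes rose and 7.65% fell. SLCO2A1, the transporter that takes prostaglandins into cells ahead of their breakdown, held 29.7, 23.6 and 17.7 CPM in siControl and 7.78, 5.54 and 3.01 CPM in siDAB2IP libraries. Its highest siDAB2IP library was far below its lowest control, a 4.33-fold lower level (log2 fold change -2.12, SE 0.30, edgeR adjusted p = 0.00287). PTGFR, the receptor of prostaglandin F2α, held 56.0, 55.4 and 57.3 CPM against 35.3, 25.0 and 28.4 CPM (log2 fold change -0.93, SE 0.13, edgeR adjusted p = 0.00270). At 11.8 ± 0.182 FPKM in siControl and 6.21 ± 1.11 FPKM in siDAB2IP cells it was the most abundant prostanoid receptor per length in both groups. Both calls held in all 14 other fits run for them.

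AKR1B1, an aldo-keto reductase that can make prostaglandin F2α, held 227, 200 and 187 CPM in siControl and 275, 268 and 250 CPM in siDAB2IP libraries (log2 fold change 0.37, SE 0.11, edgeR adjusted p = 0.0460). Among the fits that left out 1 library its call was kept only without siDAB2IP replicate 3, and the adjusted p was 0.0516, 0.184 and 0.166 without siControl replicate 1, 2 or 3 and 0.132 and 0.103 without siDAB2IP replicate 1 or 2. AKR1C3, another such reductase, stood lower in every siDAB2IP library at an adjusted p of 0.0558 (log2 fold change -0.49, edgeR). In the fit blocked on the replicate number it passed the threshold (adjusted p = 0.00432), so that 3 of the 14 genes fell there, where 11.4% of all tested genes fell. The receptor genes PTGER3 and PTGDR had 0 counts in all 6 libraries, and PTGER1, PTGDR2, PTGIR and TBXA2R had too few to be tested.

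Of 26 listed genes of arachidonate release and handling, 20 were tested, with a median log2 fold change of 0.06. Among these 3 rose (15%) and 3 fell (15%), where 6.55% of all tested genes rose and 7.65% fell. MGLL, the monoacylglycerol lipase that frees arachidonate from 2-arachidonoylglycerol, rose most, from 7.66, 7.89 and 5.52 CPM to 12.8, 14.9 and 21.4 CPM (log2 fold change 1.22, SE 0.22, edgeR adjusted p = 0.00760), and did so in all 12 other fits run for it. The other genes that rose were the lysophospholipid acyltransferases MBOAT7 (0.36, adjusted p = 0.0330) and LPCAT3 (0.50, adjusted p = 0.0150, edgeR), which put fatty acids such as arachidonate back into membranes. LPCAT3 shares 65.6% of its exonic bases with EMG1 on the opposite strand, and the strand setting of the counting is not given in the sources used here. The genes that fell were the acyltransferase LPCAT2 (-0.74, adjusted p = 0.0163), the secreted phospholipase PLA2G12A (-0.54, adjusted p = 0.0188) and the acyl-CoA synthetase ACSL1 (-0.61, adjusted p = 0.0285, edgeR).

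Apart from MGLL, these genes each lost their call in some of the 6 fits that left out 1 library, while the log2 fold changes stayed at 0.31 to 0.39 for MBOAT7, 0.43 to 0.53 for LPCAT3, -0.91 to -0.62 for LPCAT2, -0.65 to -0.50 for PLA2G12A and -0.76 to -0.52 for ACSL1. Among these 6 fits MBOAT7 kept its call only without siDAB2IP replicate 3 and had adjusted p-values of 0.0658 to 0.165 in the other 5. LPCAT3 lost it without siControl replicate 1, 2 or 3 (0.0514, 0.0716 and 0.0712), and LPCAT2 without siControl replicate 2 or 3 (0.0719 and 0.0572). PLA2G12A lost it without siControl replicate 2 or 3 or siDAB2IP replicate 1 (0.0910, 0.0663 and 0.0587), and ACSL1 without siControl replicate 1 or 2 or siDAB2IP replicate 2 (0.0839, 0.107 and 0.0750). In the fit blocked on the replicate number ANXA1, a phospholipase A2 inhibitor, passed as a further gene that rose (log2 fold change 0.42, adjusted p = 0.0204). This made 4 that rose, where 9.59% of all tested genes rose.

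In the neighbouring leukotriene and lipoxygenase branch, which draws on the same arachidonic acid, 11 of 17 listed genes were tested, with a median log2 fold change of -0.12. Among these 0 rose and 2 fell (18.2%), where 6.55% of all tested genes rose and 7.65% fell. At an unadjusted p under 0.05, 0 rose and 3 fell, where 14.5% of all tested genes rose and 15.5% fell. By DESeq2 0 rose and 2 fell, against 7.86% and 9.76% of the genes with a DESeq2 adjusted p. LTB4R, the high-affinity receptor of leukotriene B4, went from 133, 95.5 and 101 CPM to 66.5, 41.8 and 47.9 CPM (log2 fold change -1.08, edgeR adjusted p = 0.00528) and was past the threshold in all 14 other fits. LTB4R2, its low-affinity counterpart, had a log2 fold change of -0.76 (edgeR adjusted p = 0.0334), and its adjusted p was 0.10, 0.0828 and 0.0805 without siControl replicate 1, 2 or 3 and 0.0832 without siDAB2IP replicate 2. The LTB4R2 gene shares 355 exonic bases with LTB4R and 304 with NOP9 on the same strand and 1276 with CIDEB on the opposite strand, and how reads in shared bases were counted is not given in the sources used here. In the fit blocked on the replicate number 3 genes of this list fell, where 11.4% of all tested genes fell. The added gene was the lipoxygenase ALOX15B (log2 fold change -0.42, adjusted p = 0.0224 against 0.296 without the block).

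Genes linked to cAMP, the second messenger of EP2 and EP4, were listed as well. Cholera toxin, which raises cAMP, was in the medium of both groups, so this list cannot read out signaling by these receptors. Of 19 listed cAMP responsive genes 16 were tested, with a median log2 fold change of -0.15. Among these 0 rose and 4 fell (25%), where 6.55% of all tested genes rose and 7.65% fell. At an unadjusted p under 0.05, 0 rose and 5 fell, where 14.5% of all tested genes rose and 15.5% fell. By DESeq2 0 rose and 5 fell, against 7.86% and 9.76% of the genes with a DESeq2 adjusted p. PPARGC1A, a transcriptional coactivator, fell from 8.10, 9.61 and 9.81 CPM to 2.71, 2.82 and 3.65 CPM (log2 fold change -1.58, edgeR adjusted p = 0.00160). The phosphodiesterases PDE7B (-1.32, adjusted p = 0.0198) and PDE4B (-0.60, adjusted p = 0.0229) and the clock gene PER1 (-0.38, adjusted p = 0.0284, edgeR) fell as well. The immediate early gene NR4A2 held 8.21 ± 0.626 CPM in siControl and 8.45 ± 0.844 CPM in siDAB2IP cells.

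With the block DUSP1, a phosphatase of MAP kinases, passed as well (log2 fold change -0.38, adjusted p = 0.0198, edgeR). This made 5 genes that fell, where 11.4% of all tested genes fell. PPARGC1A kept its call in every other fit run for it. The PDE7B call was lost without siControl replicate 1 or 2 or siDAB2IP replicate 1 (adjusted p = 0.0745, 0.0803 and 0.0593, edgeR). PDE4B and PER1 each passed only without siDAB2IP replicate 3 among the fits that left out 1 library, and had adjusted p-values of 0.0598 to 0.0748 and 0.0557 to 0.0823 in the other 5 such fits.

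**Figure D4:**
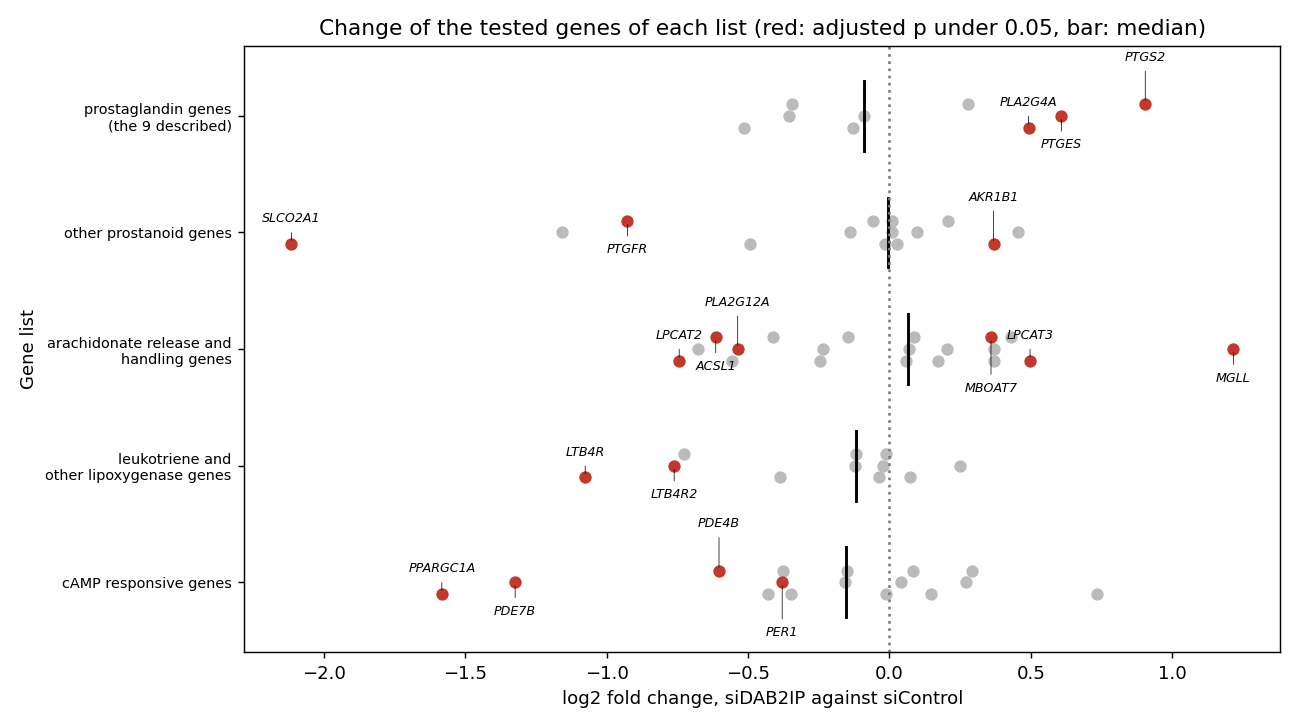
Log2 fold change of siDAB2IP against siControl (x axis) of each tested gene of the 9 and of the 4 other lists (y axis). Each point is a gene, red where the edgeR adjusted p is under 0.05, with a black bar at the list median and heights within a row only spreading the points. The medians lie between -0.15 for the cAMP responsive genes and 0.06 for the arachidonate genes, and SLCO2A1 (-2.12) is the lowest point.

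Over the 6 libraries, the genes outside the 9 whose log2 CPM followed that of PTGS2 most closely were MBOAT7 (Pearson r = 0.996), SPATA5L1 (r = 0.994) and FOSL1 (r = 0.990), a subunit of the AP-1 transcription factor. The correlation does not measure the size of a change. The log2 fold changes of these genes were 0.36, 0.17 and 0.83 against 0.90 for PTGS2. SPATA5L1 did not pass the threshold (edgeR adjusted p = 0.358). Of the 14066 genes compared, 150 reached an r above 0.95 with PTGS2. Those nearest to HPGD were BTC (r = 0.996), an epidermal growth factor receptor ligand, WIPI1 (r = 0.990) and DDAH2 (r = 0.986), and 22 genes reached 0.95. These are descriptions over 6 points that share libraries and depth. BTC shows the pattern of HPGD in full, with 2.99, 2.88 and 3.76 CPM in siControl libraries and 3.38, 3.43 and 1.80 CPM in siDAB2IP libraries.

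Markers of the labelled cell type were abundant, and part of them fell. All 10 mammary epithelial and basal markers were tested, and their summed level ranged from 8747 to 10725 CPM in siControl and from 4662 to 5981 CPM in siDAB2IP libraries, with 4 of 10 (the keratins KRT5, KRT14, KRT17 and KRT6A) past the threshold as lower, where 7.65% of all tested genes fell. Of the 10 markers 7 had a negative log2 fold change. In 6 of them, the 4 keratins, TP63 and ITGA6, every siDAB2IP library stood below every siControl library, where 18.3% of all tested genes did. At an unadjusted p under 0.05, 6 fell, where 15.5% of all tested genes fell. TP63 had a log2 fold change of -0.57 (edgeR adjusted p = 0.0615). The log2 fold changes of KRT8, KRT18 and CDH1 were 0.09, 0.02 and 0.09, and EPCAM overlapped between groups (-0.40, edgeR adjusted p = 0.335). Of 8 fibroblast markers 3 were tested, with summed levels of 163 to 293 CPM and 146 to 206 CPM, most of it DCN at 148, 182 and 275 CPM in siControl and 136, 122 and 172 CPM in siDAB2IP libraries (log2 fold change -0.49, edgeR adjusted p = 0.151, and 0.0247 with the block). COL1A1 alone, 1 of the 3 tested, rose (log2 fold change 0.78, edgeR adjusted p = 0.0129), where 6.55% of all tested genes rose. THY1 had 0 counts in the siControl libraries and COL1A2 at most 3. The 8 leukocyte markers, 3 of them tested, summed to 38 to 71.7 CPM and 51.8 to 78.4 CPM, almost all of it CD14, with CD3E at 0 in all libraries and PTPRC at 0 in all but 1. The 6 endothelial markers, 5 of them tested, summed to 24 to 34.1 CPM and 16 to 17.4 CPM. Of the 5 tested, 1, KDR, fell, where 7.65% of all tested genes fell. With the block TP63 and PECAM1 passed as lower too (adjusted p = 0.00456 and 0.0499, edgeR), where 11.4% of all tested genes fell. The part of these differences in the levels of the prostaglandin genes was not tested.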

How the data were processed

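RNA-Seq libraries of MCF10A cells (3 siControl, 3 siDAB2IP) were used. The authors deposited raw counts per gene, without normalization, and FPKM values, which the authors derived from them by gene length and a scaled total per library. The submitters' processing notes name STAR 2.6.1d, featureCounts 1.5.0-p3, DESeq2 1.20.0, edgeR 3.24.3 and hg38, and the strand setting is not given in the sources used here. Coordinates are those of the tables and match GENCODE.

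Tests used edgeR 4.0.16 (R 4.3.3) on the counts: genes kept by filterByExpr with the groups given, TMM scaling, glmQLFit and glmQLFTest, with p-values adjusted by Benjamini-Hochberg over 15430 genes at a threshold of 0.05. CPM are TMM-normalized, and SE were derived from the quasi-likelihood F. Alternatives were RLE or library size scaling, DESeq2 1.42.0, no filter or at least 10 counts in every library, a replicate block, limma 3.58.1 on log2(FPKM + 1) and log2(FPKM + 0.1) for genes with a mean of at least 1 FPKM, and leaving out each library.

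Replicate numbers come from the labels. Deviations from group means correlated at 0.265, 0.155 and 0.255 between libraries of the same number and at -0.278 to 0.0207 otherwise. The numbers were therefore used as pairs for the differences within numbers and in the replicate block. The main fit used the groups only and left the pairs out. The genes and lists were chosen with earlier results of these data known. Named are all 9 genes, DAB2IP, up to 6 genes per list past the threshold by smallest p, and the 3 genes most correlated with PTGS2 and HPGD (mean of at least 1 CPM). AKR1C3, ANXA1, ALOX15B, DUSP1, NR4A1, NR4A2, the markers, TPR, ODR4, PTGES3P1 and genes without counts were named after their values were seen.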

Additional observations from a re-analysis of the deposited data

How the results depend on the processing

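The number of the 9 genes that rose was 3 in the fit reported above and 1 with limma on either FPKM scale, and ranged from 0 to 4 when 1 library was left out. The number that fell was 0 in the fit reported above, 1 with no filter on low counts, 1 with the replicate block, and 0 to 1 when 1 library was left out. With limma, 0 of the other prostanoid genes rose and 1 of the cAMP responsive genes fell on either FPKM scale. Over all 12412 genes tested with limma, 684 rose and 817 fell on log2(FPKM + 1), and 659 and 758 on log2(FPKM + 0.1). With no filter on low counts, 1245 of 29567 genes rose and 1692 fell. When 1 library was left out, 0 to 1 of the other prostanoid genes rose and 2 to 3 fell, 1 to 4 of the arachidonate genes rose and 0 to 3 fell, 1 to 2 of the leukotriene genes fell and 1 to 4 of the cAMP responsive genes fell. Of single genes, the log2 fold change of HPGD, -0.13 in the fit reported above, ranged from -0.27 to 0.091 when 1 library was left out and changed sign only without siDAB2IP replicate 3. The cause of these differences was not tested. Over all genes, leaving out 1 library gave 264 to 1172 genes that rose and 459 to 1352 that fell, against 1011 and 1181 in the fit reported above, and the replicate block, with pairs from the labels' numbers, gave 1479 and 1754 and changed no other call of the 9 genes than that of PTGES3. With the block 3 of the other prostanoid genes fell, 4 of the arachidonate genes rose, 3 of the leukotriene genes fell and 5 of the cAMP responsive genes fell, and no other call of these lists changed. With library size scaling the median log2 fold change of all genes was 0.05 against 0.01. PTGER2, PTGER4 and HPGD lay under 1 FPKM and were left out with limma, and the part of low counts in their wide intervals was not tested.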

Other observations

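PACERR, a noncoding RNA gene that starts just upstream of PTGS2 on the opposite strand, had 1, 1 and 8 counts in siControl and 4, 5 and 8 counts in siDAB2IP libraries and was not tested, so its level cannot be set beside that of PTGS2 at this depth.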
